A study of Mus musculus with 2 samples.

Results

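The mouse collagen genes, all genes with a symbol of the form Col, number, a, number, were examined in single-nucleus RNA sequencing of the thalamus. Members were found by mapping the Ensembl identifiers of both count tables to the symbols of GENCODE M21 on GRCm38. The pattern matched 44 of 32285 genes, and 43 of them had at least 50 unique molecular identifiers (UMIs, each standing for 1 captured RNA molecule) over both libraries. Col3a1 had 29 and was left out of counts of marking genes and of ratios. Thalamus of the operated side was taken on day 21 from female C57BL/6J mice that were 3 months old. Mice of the injury group had cortical ablation injury (CAI), in which sensory and motor cortex is removed by surgery, while sham mice received a burr hole with the cortex left in place. Nuclei of 4 mice were combined for each group into 1 library, so there were 2 libraries in all. The mice within a pool cannot be separated, so no difference between the groups has a replicate check, no test was possible, and each interval below is a 95% interval of the counts that covers counting error only.

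Collagens are secreted or membrane-bound proteins in which 3 chains wind into a triple helix. The helix requires a glycine in each triplet of residues, because no larger side chain has room at its axis. Fibril-forming collagens build the cables of connective tissue, and fibril-associated collagens attach to their surface. Network-forming collagens make up the sheets of basement membranes, such as those around brain capillaries. Beaded filament collagens, the type VI chains, lie around cells, multiplexins sit at basement membranes, and transmembrane collagens span the plasma membrane and can be shed. In the brain the matrix between cells holds few collagen fibrils, and collagen is best known at vessels and meninges. Neurons nevertheless transcribe many collagen genes, several of which act in synapse formation and axon guidance.

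The triple-helix code is printed for 7 collagens on which the results below turn, to show what chains of unlike families have in common. Each run gives 9 successive codon triplets of the longest uninterrupted helix of the gene, read from its coding sequence in GENCODE M21, 5′ to 3′. Capitals mark the glycine codon that opens each triplet, of the form GGN.
Col12a1: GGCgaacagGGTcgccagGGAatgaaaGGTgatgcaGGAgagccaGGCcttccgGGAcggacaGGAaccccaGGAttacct
Col11a1: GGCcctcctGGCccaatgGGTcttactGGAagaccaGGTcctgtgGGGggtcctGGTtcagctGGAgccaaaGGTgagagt
Col27a1: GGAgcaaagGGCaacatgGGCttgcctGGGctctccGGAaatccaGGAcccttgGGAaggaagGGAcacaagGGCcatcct
Col25a1: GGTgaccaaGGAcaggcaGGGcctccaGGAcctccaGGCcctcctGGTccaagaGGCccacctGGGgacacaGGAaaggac
Col23a1: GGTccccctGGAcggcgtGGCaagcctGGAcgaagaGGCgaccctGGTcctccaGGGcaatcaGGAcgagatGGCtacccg
Col6a3: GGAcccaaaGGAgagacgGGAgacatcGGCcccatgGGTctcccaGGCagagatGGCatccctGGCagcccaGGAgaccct
Col4a1: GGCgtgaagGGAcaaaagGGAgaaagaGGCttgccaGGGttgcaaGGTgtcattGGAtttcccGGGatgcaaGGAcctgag
The runs start at codon 2805 of Col12a1, 527 of Col11a1, 673 of Col27a1, 189 of Col25a1, 110 of Col23a1, 2165 of Col6a3 and 43 of Col4a1. On GRCm38, Col12a1 lies at chr9:79598991-79718831 on the minus strand, Col11a1 at chr3:114030540-114220718 on the plus strand and Col27a1 at chr4:63214004-63334991 on the plus strand. Col25a1 lies at chr3:130131501-130599877 and Col23a1 at chr11:51289920-51583918, both on the plus strand, and Col6a3 at chr1:90765923-90843971 on the minus strand. Col4a1 (chr8:11198423-11312826, minus strand) and Col4a2 (chr8:11312805-11449287, plus strand) run apart from start sites that overlap by 21 bases. All 44 genes kept the glycine repeat, but its length differed between families. The longest unbroken run spanned 216 to 344 triplets in the 11 fibril-forming genes and 37 to 87 in the 6 type VI genes. It spanned 39 to 66 triplets in the 9 network-forming genes, 32 to 113 in the 9 fibril-associated genes and 40 to 56 in the 4 transmembrane genes.

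Sequencing gave 137850696 UMIs in 16390 sham barcodes and 180106314 UMIs in 21828 injury barcodes, and 101 barcode sequences occurred in both. Collagens took 0.106% of UMIs in sham and 0.102% in injury. The libraries did not hold the same cells. There were 3 neuron clusters nearly absent from sham: N20 (Ano2/Myo5b) with 3 sham and 416 injury nuclei, and a cortical excitatory-like and a dentate granule-like cluster, types from outside the thalamus, with 281 and 209 nuclei after injury and 0 in sham. Those clusters, mixed clusters rich in called doublets and 2 unnamed clusters were left out, which left 18 glutamatergic and 2 GABAergic clusters with at least 50 nuclei in each library. Clusters are called by number and 1 or 2 leading genes that are not collagens, and a cell type is named only where listed markers gave it, as "like" that type. Levels are counts per 1000000 UMIs of a cluster or class (CPM). They were compared for 1 gene across clusters and not between genes, since UMIs counted at 3′ ends are not corrected for gene structure. Another gene overlapped 28 of the 44 collagens, 18 of them on the opposite strand, and whether counting used the strand was not stated, so their counts could hold reads of the other gene.

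To determine which collagens set neuron types apart, each gene's level was compared across the 20 neuron clusters. A gene was said to mark a cluster when the same cluster had its highest level in both libraries, at least 4 times the median cluster in each. By this rule 17 of 43 collagens marked a cluster, which is 39.5% against 10.1% of all genes with as many UMIs. The clusters were made from these same nuclei with collagens kept out of the genes used, so the counts describe them and test nothing. The 17 genes spread over 12 of the 20 clusters and came from most families: 6 were fibril-forming, 4 type VI, 3 network-forming, 2 fibril-associated, 1 a multiplexin and 1 a transmembrane collagen. The share that marked a cluster was 6 of 11 fibril-forming, 4 of 6 type VI, 3 of 9 network-forming and 2 of 9 fibril-associated genes. It was 1 of 2 multiplexins and 1 of 4 transmembrane genes. Families of this size are too small to read as a family result. Of the type VI genes, Col6a1 and Col6a2 rested on few counts and did not meet the rule without called doublets. At a fold of 8 over the median cluster 9 of the 17 remained.

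**Figure D1:**
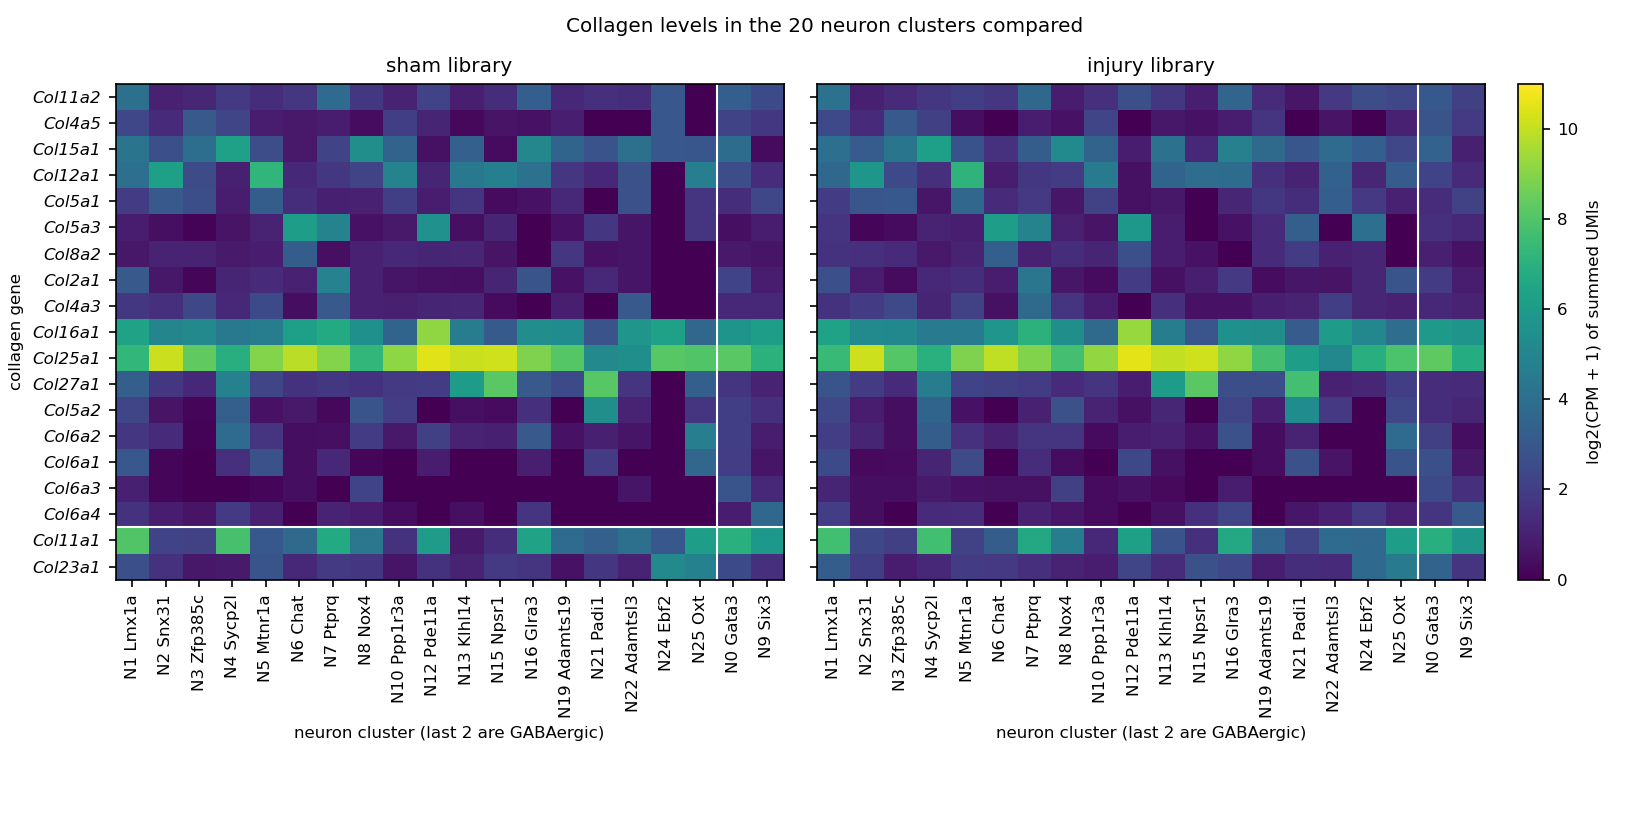
Heat maps of log2(CPM + 1) in the sham and injury libraries, with 20 neuron clusters, labelled by number and 1 leading gene, in columns and the 17 marking collagens plus Col11a1 and Col23a1 in rows. The highest level of each marking gene falls in the same column in both panels, and different genes peak in different columns.

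The medial habenula-like clusters carried 4 of the marking collagens. Col5a3, a minor fibril-forming chain of type V, reached 68.8 CPM (59.7 to 78.9) in sham and 71.7 CPM (64.5 to 79.5) after injury in cluster N6 (Chat/Chrna3). The median cluster lay at 0.631 and 1.07 CPM, and the second habenula-like cluster, N12 (Pde11a/Kcng4), came next with 46.9 and 58.0 CPM. The habenula-like pair was thus highest for Col5a3, and N7 (Ptprq/Popdc3) followed with 28.9 and 29.7 CPM. Col8a2, a network-forming chain known from the cornea, also peaked in N6, at 8.39 CPM (5.43 to 12.4) and 8.94 CPM (6.52 to 11.96), 12.1 and 7.62 times the median cluster. Col16a1, a fibril-associated collagen, peaked in N12 at 584 CPM (554 to 616) and 625 CPM (595 to 657), which was 14.3 and 15.7 times the median cluster and well above the next cluster, N7 (Ptprq/Popdc3), at 106 and 134 CPM. Col25a1, a transmembrane collagen whose shed part is found in amyloid plaques, was also highest in N12, at 1443 CPM (1395 to 1491) and 1498 CPM (1451 to 1546). It was present throughout the neurons, at 306 and 292 CPM in the median cluster and at 1185 and 1165 CPM in cluster N15 (Npsr1/Myo5c).

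Col27a1, a fibril-forming collagen of cartilage, came first among the marking genes when each was ranked by its lower fold of the 2 libraries. It reached 289 CPM (273 to 306) in sham and 289.6 CPM (267 to 313) after injury in the glutamatergic cluster N15 (Npsr1/Myo5c), which was 104.5 and 98.0 times the median cluster at 2.77 and 2.96 CPM. The glutamatergic cluster N21 (Padi1/Serpinb7) was close behind with 281 and 208 CPM, and cluster N13 (Klhl14/Adgrg6) had 67.1 and 66.4 CPM. Without called doublets Col27a1 no longer met the rule, because its highest cluster differed between the libraries, while its lower fold was 101.6. With all nuclei the sham interval of N15 held the N21 level, so the order of the 2 clusters was not resolved in sham. In N15, 80% of sham and 79.3% of injury nuclei held a Col27a1 UMI, against 5.43% and 4.67% of the other neurons and 1.59% and 1.73% of oligodendrocytes. With nuclei of at least 1000 UMIs thinned to 1000, the shares in N15 were 26.9% and 26.3%, and those in oligodendrocytes 0.840% and 0.671%. Shallower nuclei were left out, which removed 172 sham and 381 injury oligodendrocytes but none of N15. Col5a2, a type V chain, marked N21 with 42.5 CPM (34.2 to 52.2) and 40.0 CPM (31.3 to 50.5), 47.3 and 34.4 times the median cluster.

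Col12a1, a fibril-associated collagen, marked the glutamatergic cluster N5 (Mtnr1a/Fbln1). Its level there was 149 CPM (142 to 157) in sham and 140.3 CPM (133 to 148) after injury, 30.7 and 35.2 times the median cluster, and N5 held 37.5% and 40.7% of all neuronal Col12a1 UMIs. Cluster N2 (Snx31/C6) followed with 74.5 and 56.3 CPM and the relay-like cluster N10 (Ppp1r3a/Tspan11) with 29.1 and 22.6 CPM. A Col12a1 UMI was found in 38.9% and 40.9% of N5 nuclei against 8.25% and 6.07% of other neurons, and after thinning to 1000 UMIs in 11.2% and 11.2% against 1.79% and 1.10%. In oligodendrocytes, which served as the background from free RNA, the thinned shares were 0.480% and 0.207%.

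Col11a1, a fibril-forming collagen, was high in the same pair of glutamatergic clusters in both libraries, with a different one first. In N1 (Lmx1a) it had 259 CPM (251 to 268) in sham and 203.5 CPM (197 to 211) after injury. In N4 (Sycp2l/Lypd6b) it had 221 CPM (212 to 232) and 204 CPM (196 to 213), so the injury intervals of the pair overlapped and the sham intervals did not. The GABAergic cluster N0 (Gata3/Gad2) had 127 and 123 CPM and the reticular-like cluster N9 (Six3/Colq) 57.3 and 56.1 CPM, while cluster N13 (Klhl14/Adgrg6) had 4 UMIs in sham. Its usual partner chain, Col11a2, was highest in N1 in both libraries, at 15.7 CPM (13.7 to 17.9) and 16.4 CPM (14.5 to 18.6), 7.42 and 6.53 times the median cluster, but it no longer marked a cluster without integration of the libraries. N4 in turn was marked by Col15a1, a multiplexin, with 78.0 CPM (72.1 to 84.2) and 72.2 CPM (67.2 to 77.5), 9.55 and 7.68 times the median cluster.

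The 2 compared GABAergic clusters were each marked by a type VI chain at a low level. Col6a3, a long chain of the type VI filament, had 66 UMIs or 6.32 CPM (4.89 to 8.04) in sham and 77 UMIs or 4.57 CPM (3.60 to 5.71) after injury in N0 (Gata3/Gad2). N0 held 57.9% and 47.2% of its UMIs in the compared neurons. The glutamatergic cluster N8 (Nox4/Slco1a6) was next with 3.61 and 3.18 CPM, and in sham the median cluster had none. Col6a4 marked the reticular-like cluster N9 with 12.3 CPM (9.01 to 16.4) and 7.50 CPM (5.53 to 9.94). Col6a1 and Col6a2, the short type VI chains, were highest in N25 (Oxt/Sim1), a cluster of 64 sham and 147 injury nuclei, but on few counts. Col6a2 had 11 and 13 UMIs there (24.9 CPM, 12.4 to 44.5, and 13.4 CPM, 7.14 to 22.9), and Col6a1 had 5 and 6 UMIs (11.3 CPM, 3.67 to 26.4, and 6.19 CPM, 2.27 to 13.5). Neither met the rule without called doublets.

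Col23a1, a transmembrane collagen, marked no compared cluster under the rule. Its highest level was in N24 (Ebf2/Corin) in sham, at 35.2 CPM (16.9 to 64.8) from 10 UMIs, and in N25 (Oxt/Sim1) after injury, at 21.7 CPM (13.4 to 33.1) from 21 UMIs. N25 had 27.1 CPM in sham and N24 12.6 CPM after injury, so both small clusters were high in both libraries and their order was not resolved. The median cluster had 2.13 and 2.38 CPM.

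The remaining marking genes described single glutamatergic clusters. Col2a1, the major collagen of cartilage, peaked in N7 (Ptprq/Popdc3) at 28.7 CPM (24.3 to 33.7) and 18.9 CPM (15.3 to 23.2), 31.7 and 21.4 times the median cluster. Col4a3, a basement membrane chain, peaked in the same cluster at 7.47 and 12.96 CPM, but did not meet the rule without called doublets or without integration. Col4a5, the partner of Col4a3 in kidney basement membrane, marked the relay-like cluster N3 (Zfp385c/Abhd12b) with 7.52 CPM (6.14 to 9.12) and 7.46 CPM (6.15 to 8.97), but the next clusters were close, with 7.04 CPM in N24 in sham and 6.35 CPM in N0 after injury. Col5a1 was highest in N5 beside Col12a1, at 8.38 and 11.4 CPM.

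**Figure D2:**
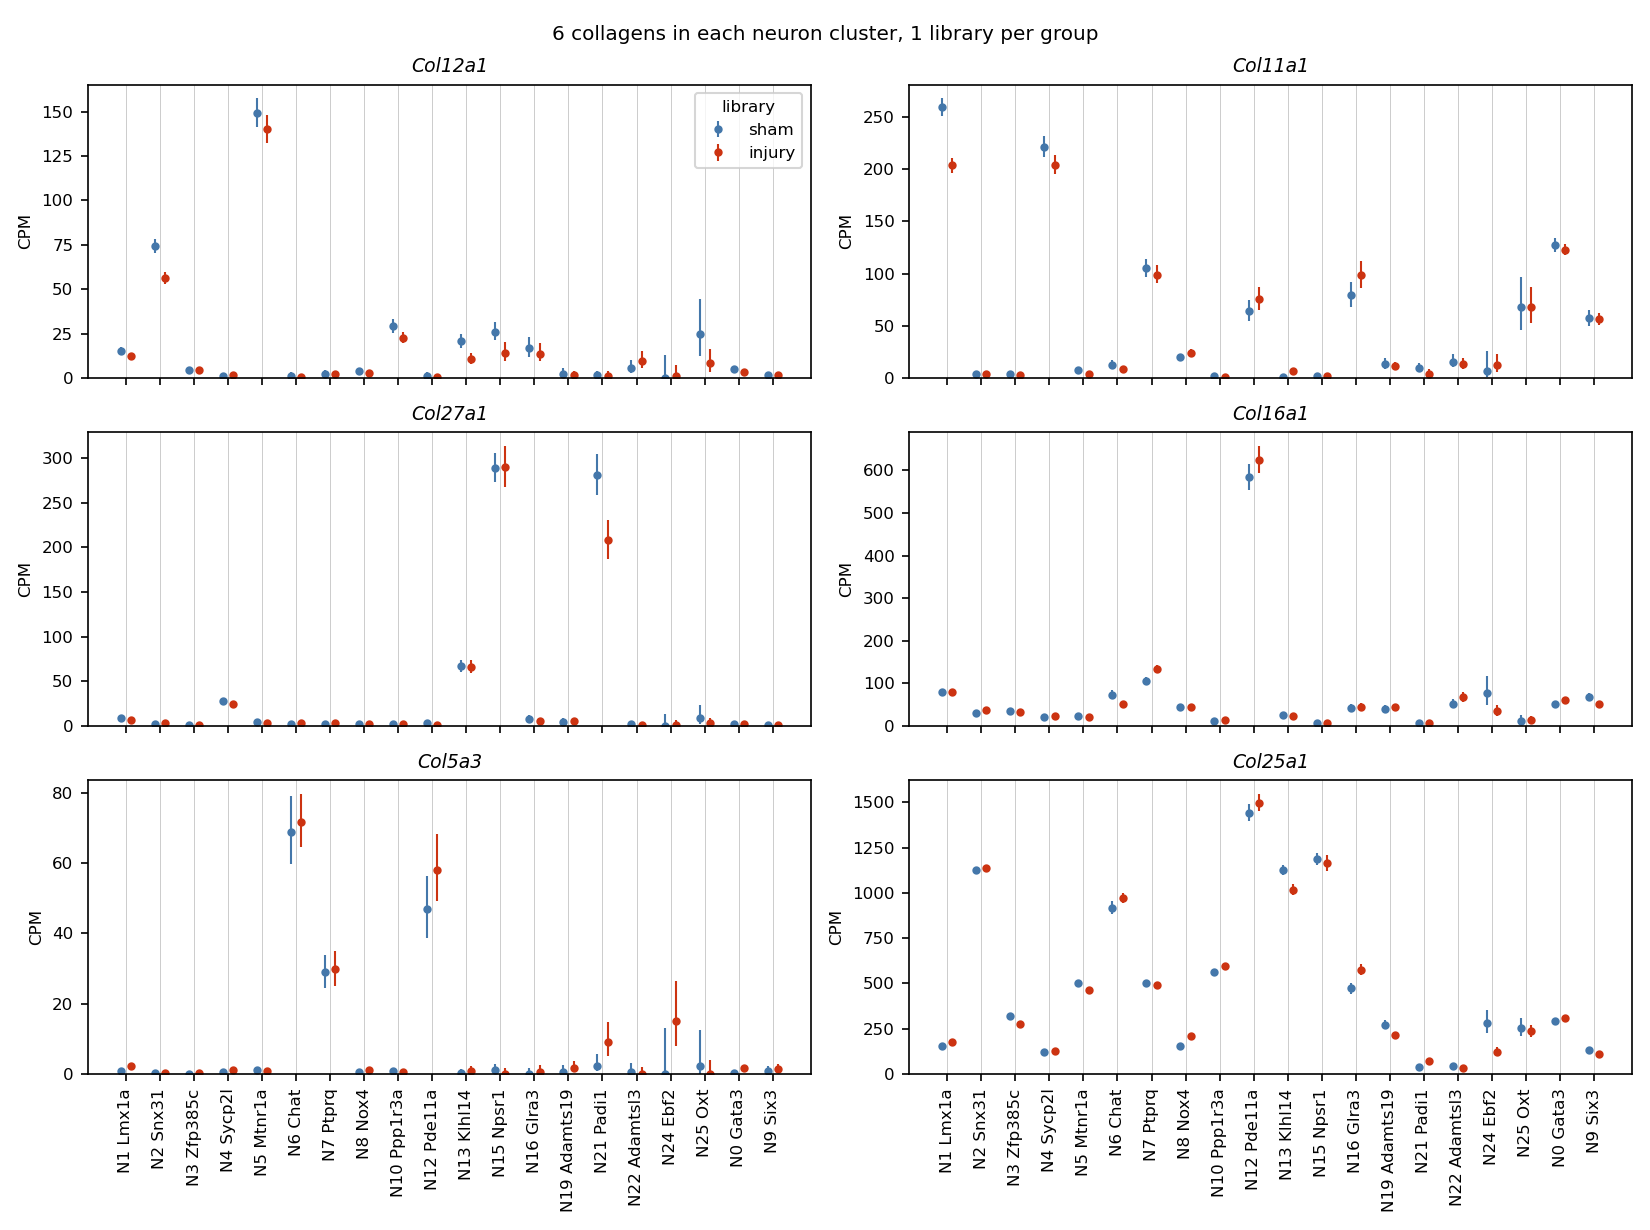
Levels of 6 collagens in the 20 neuron clusters, in CPM with exact Poisson 95% intervals as bars, sham and injury side by side. Col12a1 stands highest in N5, Col27a1 in N15 and N21, Col16a1 in N12 and Col5a3 in the habenula-like pair, and Col25a1 is at 34.2 CPM or more in every cluster.

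The other 26 of the 43 collagens marked no cluster. For 4 of them, Col1a1, Col22a1, Col4a1 and Col9a3, the highest cluster was the same in both libraries but short of the marking fold in at least 1. For Col1a1 the median cluster had 0 and 0.031 CPM, so its folds, at least 2.30 and 4.19, were taken over the floor of 3 UMIs. For the other 22 the highest cluster differed between the libraries. Col4a1, the main chain of basement membranes, was broad, with 75.3 and 83.3 CPM in the relay-like cluster N10 against 35.2 and 39.3 CPM in the median cluster. Col4a2, its partner, had 58.5 and 60.6 CPM in the median cluster. Col26a1, a collagen outside the main families, had 138 and 158 CPM in the relay-like cluster N3 and had 1 UMI in the N25 nuclei of sham. Across the 20 clusters the correlation of log levels between libraries had a median of 0.749 over the 43 genes, and the points share clusters made from both libraries.

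Type IV genes stand in head-to-head pairs, and levels of each pair were set side by side across the 20 clusters as a description. Col4a1 and Col4a2, whose start sites overlap, had Pearson's r of 0.86 in sham and 0.91 after injury. For Col4a4 and Col4a3, 72 bases apart on chromosome 1, r was 0.43 and 0.31, and for Col4a6 and Col4a5, 1309 bases apart on chromosome X, it was 0.11 and 0.18. The last pair had few counts, with 374 UMIs of Col4a6 in all nuclei.

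Collagens were next examined in glia and vascular nuclei. A level was read as above background only where its interval lay above the level that free neuronal RNA would give in that class. By this rule 13 of 44 collagens were above background in both libraries in oligodendrocytes, 16 in astrocytes, 11 in oligodendrocyte precursors, 1 in microglia and 6 in vascular nuclei. The classes differed in depth, with 1005 and 2318 oligodendrocytes, 209 and 509 astrocytes, 108 and 165 precursors, 27 and 149 microglia and only 9 and 21 vascular nuclei. A gene at a low level could therefore have been missed in a small class.

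In oligodendrocyte precursors the most collagen UMIs came from fibril-forming chains. Col11a1 had 214 CPM in both libraries (165 to 272 and 176 to 259), near the levels of its leading neuron clusters, against at most 5.58 CPM expected from free RNA. Col11a2 had 149 CPM (109 to 199) and 153 CPM (121 to 191), which was 5.10 times the next class over both libraries. Col27a1 had 97.2 and 100.3 CPM and Col16a1 90.7 and 100.3 CPM. In oligodendrocytes, which make myelin, Col11a1 was not above free RNA in both libraries. Neither was Col25a1, which had 52 and 166 UMIs there, or 29.4 and 38.3 CPM. Of the collagens that were above free RNA in both libraries, Col16a1 had the highest counts, with 49.2 CPM (39.4 to 60.7) and 45.3 CPM (39.2 to 52.1). Next was Col9a3, a chain of the fibril-associated type IX, with 35.6 CPM (27.4 to 45.6) and 19.2 CPM (15.3 to 23.8). Col9a1, another type IX chain, followed at 18.1 and 21.5 CPM, Col11a2 at 13.6 and 18.01 CPM and Col20a1 at 11.3 and 10.4 CPM.

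In astrocytes the collagens above free RNA came from several families, among them basement membrane, type V, type I and fibril-associated chains. Col4a2 had 26.4 CPM (13.7 to 46.2) in sham and 65.7 CPM (53.1 to 80.5) after injury, Col4a1 17.6 CPM (7.61 to 34.7) and 50.4 CPM (39.4 to 63.4), and Col4a5 33.1 CPM (18.5 to 54.5) and 51.8 CPM (40.6 to 65.0). Col5a3 had 24.2 and 47.6 CPM, and Col9a3 44.1 and 42.0 CPM. Col16a1 had 35.3 and 36.4 CPM, and Col1a2 30.9 and 32.9 CPM. In microglia, Col27a1 alone passed, with 7 UMIs or 219 CPM (87.8 to 450.2) in sham and 48 UMIs or 250.1 CPM (184 to 332) after injury.

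**Figure D3:**
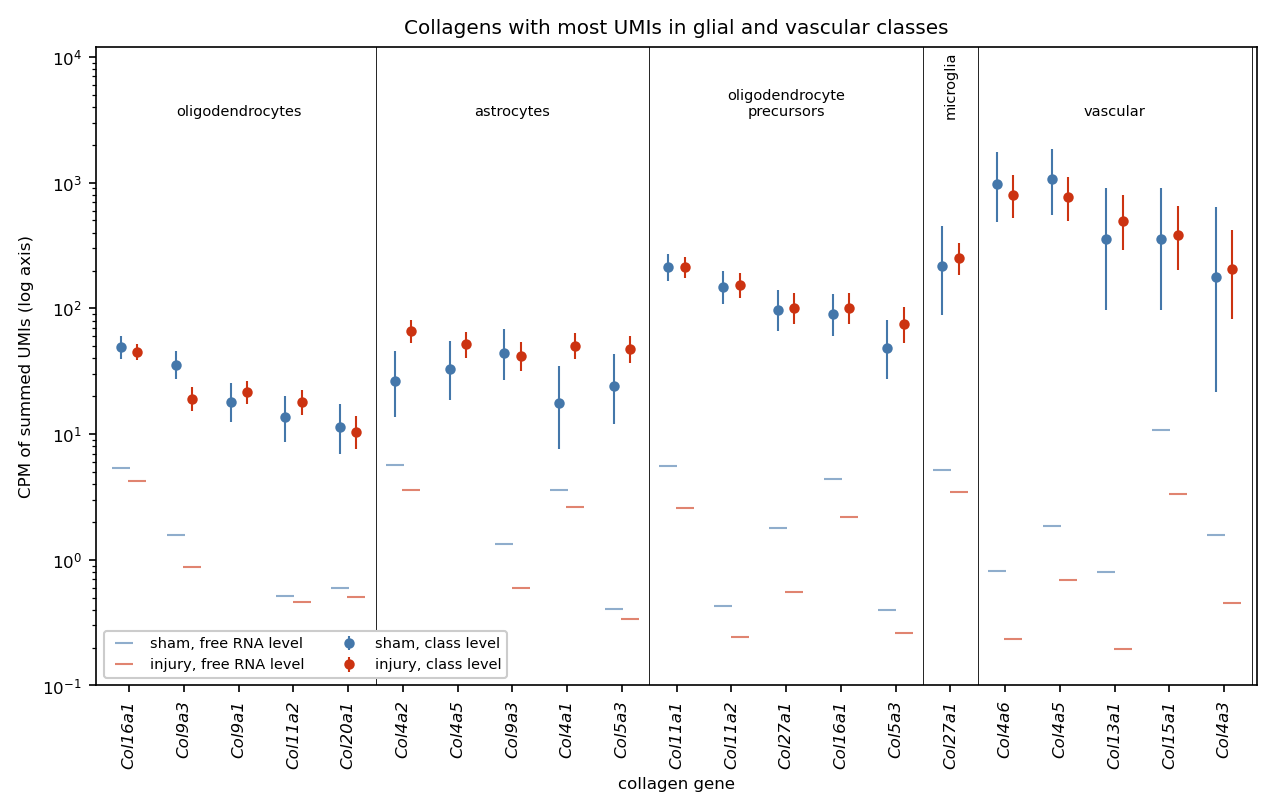
Levels of the named collagens in glial and vascular classes, in CPM on a log axis with exact Poisson 95% intervals, beside the level expected from free RNA in each class. The class levels lie above the free RNA level, at 214 CPM against at most 5.58 CPM for Col11a1 in precursors.

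Vascular nuclei were few, yet 23 of 44 collagens were highest there when both libraries were pooled, many on few UMIs, and 10 of them in each library on its own. Of all genes, 18.3% were highest in vascular nuclei. Col4a5 had 12 and 26 UMIs in the 9 sham and 21 injury nuclei, or 1065 CPM (550 to 1860) and 763 CPM (498 to 1118), and Col4a6 had 11 and 27 UMIs, or 976 and 792 CPM. Col13a1, a transmembrane collagen, had 4 and 17 UMIs there, against 1.15 CPM over both libraries in glutamatergic neurons, the class that came next. By listed markers the 30 nuclei were parted into 17 mural, 8 fibroblast-like, 2 endothelial and 3 tied nuclei, so endothelium itself was almost missing. All 9 UMIs of Col4a3 and all 9 of Col4a4 fell in mural nuclei. Fibroblast-like nuclei held 21 UMIs of Col4a5, 18 of Col4a6, 12 of Col4a1, 10 of Col13a1 and 5 of Col1a2. They were not alone in this. The 3 tied nuclei held 13 UMIs of Col4a5, 13 of Col4a6 and 11 of Col13a1, and mural nuclei 4 of Col4a5 and 7 of Col4a6.

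The injury and sham libraries were then compared within each class, as the log2 ratio of class sums in CPM. A gene was called higher or lower when this ratio was at least 0.5 in size with at least 50 UMIs in the class. In glutamatergic neurons 7 of 43 collagens were higher and 2 lower, against 5.01% and 3.09% of all genes tested, and the collagen median was 0.07 against 0.01 for all genes. In GABAergic neurons 5 of 36 were higher and 2 lower, against 5.95% and 3.50% of all genes, with a collagen median of -0.09. The count of 7 past the fold was 12 with free RNA subtracted, 11 without called doublets and 2 with a minimum of 200 UMIs. That minimum leaves fewer genes to count, and the shares of all genes are given for the main setting only. A class level can also move with the mix of its clusters, and fewer cells of a type cannot be told apart from less RNA per cell in such a sum.

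Col9a3, a chain of type IX collagen, had the lowest ratio in glutamatergic neurons, with 1816 UMIs in sham and 1159 after injury (16.9 and 10.1 CPM, log2 ratio -0.75, interval -0.85 to -0.64). It was also lower in GABAergic neurons (80 and 87 UMIs, -0.59, -1.05 to -0.14, but -0.42 with free RNA subtracted) and in oligodendrocytes (63 and 83 UMIs, -0.89, -1.38 to -0.40), where it was the 1 collagen of 7 past the fold, against 8.30% of all genes lower and 6.49% higher. Within single neuron clusters it was below 0 in all 11 that had 50 UMIs, from -0.71 to -0.46, and past the fold in 8. Col9a3 overlaps the coding gene Tcfl5, which had 9 and 4 UMIs in glutamatergic neurons. In astrocytes the ratio of Col9a3 was -0.07 (20 and 60 UMIs). Its partner chain Col9a2 was also below 0 in glutamatergic neurons, but within the fold (677 and 614 UMIs, -0.24, -0.40 to -0.08). The other partner, Col9a1, went the other way in glutamatergic neurons, from 119 to 224 UMIs (0.81, 0.49 to 1.15), though at an equal cluster mix its ratio was 0.49. The largest single part of that was cluster N24 (Ebf2/Corin), where Col9a1 had 0 UMIs in 71 sham nuclei and 51 in 173 injury nuclei, a log2 ratio of at least 2.61 against a floor of 3 UMIs.

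Col27a1 was lower in glutamatergic neurons, with 2704 and 1880 UMIs (25.2 and 16.3 CPM, log2 ratio -0.62, -0.71 to -0.54). Its leading cluster N15 held 465 sham but 266 injury nuclei, and within N15 the ratio was 0.00 (-0.14 to 0.14). With the same cluster mix given to both libraries the class ratio was -0.14. In N21, the second cluster, it was -0.43 (-0.62 to -0.24). Col12a1 had a ratio below 0 in all 9 clusters that had 50 UMIs, though its class ratio of -0.39 (-0.46 to -0.32) was short of the fold. The difference was smallest in N5, the cluster it marks (-0.09, -0.20 to 0.02), and past the fold in N13 (115 and 51 UMIs, -0.96) and N15 (106 and 31 UMIs, -0.87). Col11a1 (-0.09, -0.14 to -0.04), Col25a1 (-0.08, -0.09 to -0.06) and Col16a1 (0.08, 0.03 to 0.14) lay near 0 in glutamatergic neurons.

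Some type VI chains were higher by the fold, 3 of 6 in glutamatergic and 2 of 6 in GABAergic neurons, with only Col6a5 in both. Of all genes tested, 5.01% and 5.95% were higher in these classes, and 6 genes are too few to read as a family result. Within the fold in glutamatergic neurons were Col6a4 (0.05), Col6a1 (-0.20) and Col6a2 (-0.23). In GABAergic neurons Col6a2 (-0.05), Col6a6 (-0.07) and Col6a4 (-0.10) were within it, as was Col6a3. Col6a5 went from 70 to 137 UMIs in glutamatergic neurons (0.87, 0.44 to 1.31) and from 49 to 167 in GABAergic neurons (1.06, 0.59 to 1.55), and Col6a6 from 113 to 198 in glutamatergic neurons (0.71, 0.37 to 1.06). Col6a3 went from 43 to 74 UMIs in glutamatergic neurons (0.68, 0.12 to 1.26) but from 71 to 89 in GABAergic neurons, where its ratio was -0.39 (-0.85 to 0.08). In glutamatergic neurons its injury level, 0.642 CPM, was not above the 0.646 CPM that free RNA would give, and without called doublets its ratio was 0.48. Col8a2 was also higher in glutamatergic neurons (0.70, 0.37 to 1.04). Within N6, the cluster it marks, which held 581 sham and 921 injury nuclei, its ratio was 0.09 (-0.65 to 0.86). In N2 (Snx31/C6) it was 0.65 (-0.18 to 1.52). Col1a1 (60 and 92 UMIs, 0.52, 0.03 to 1.01) and Col1a2 (24 and 39 UMIs, 0.60, -0.17 to 1.40) passed the fold on few counts, the interval of Col1a2 holds 0, and both were short of the fold under some alternatives, at 0.49 for Col1a1 with free RNA subtracted and 0.44 for Col1a2 without called doublets. In GABAergic neurons Col23a1 was highest in ratio, from 54 to 188 UMIs (1.08, 0.64 to 1.55). Its levels of 3.81 and 8.08 CPM became 4.09 and 7.59 CPM with free RNA subtracted, which brought them closer together. Col6a1 (33 and 97 UMIs, 0.84, 0.26 to 1.46), Col9a1 (16 and 43 UMIs, 0.71, -0.15 to 1.64) and Col4a5 (48 and 124 UMIs, 0.65, 0.16 to 1.17) followed in GABAergic neurons. Col5a2 was lower there, with 39 and 37 UMIs (-0.79, -1.48 to -0.10).

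**Figure D4:**
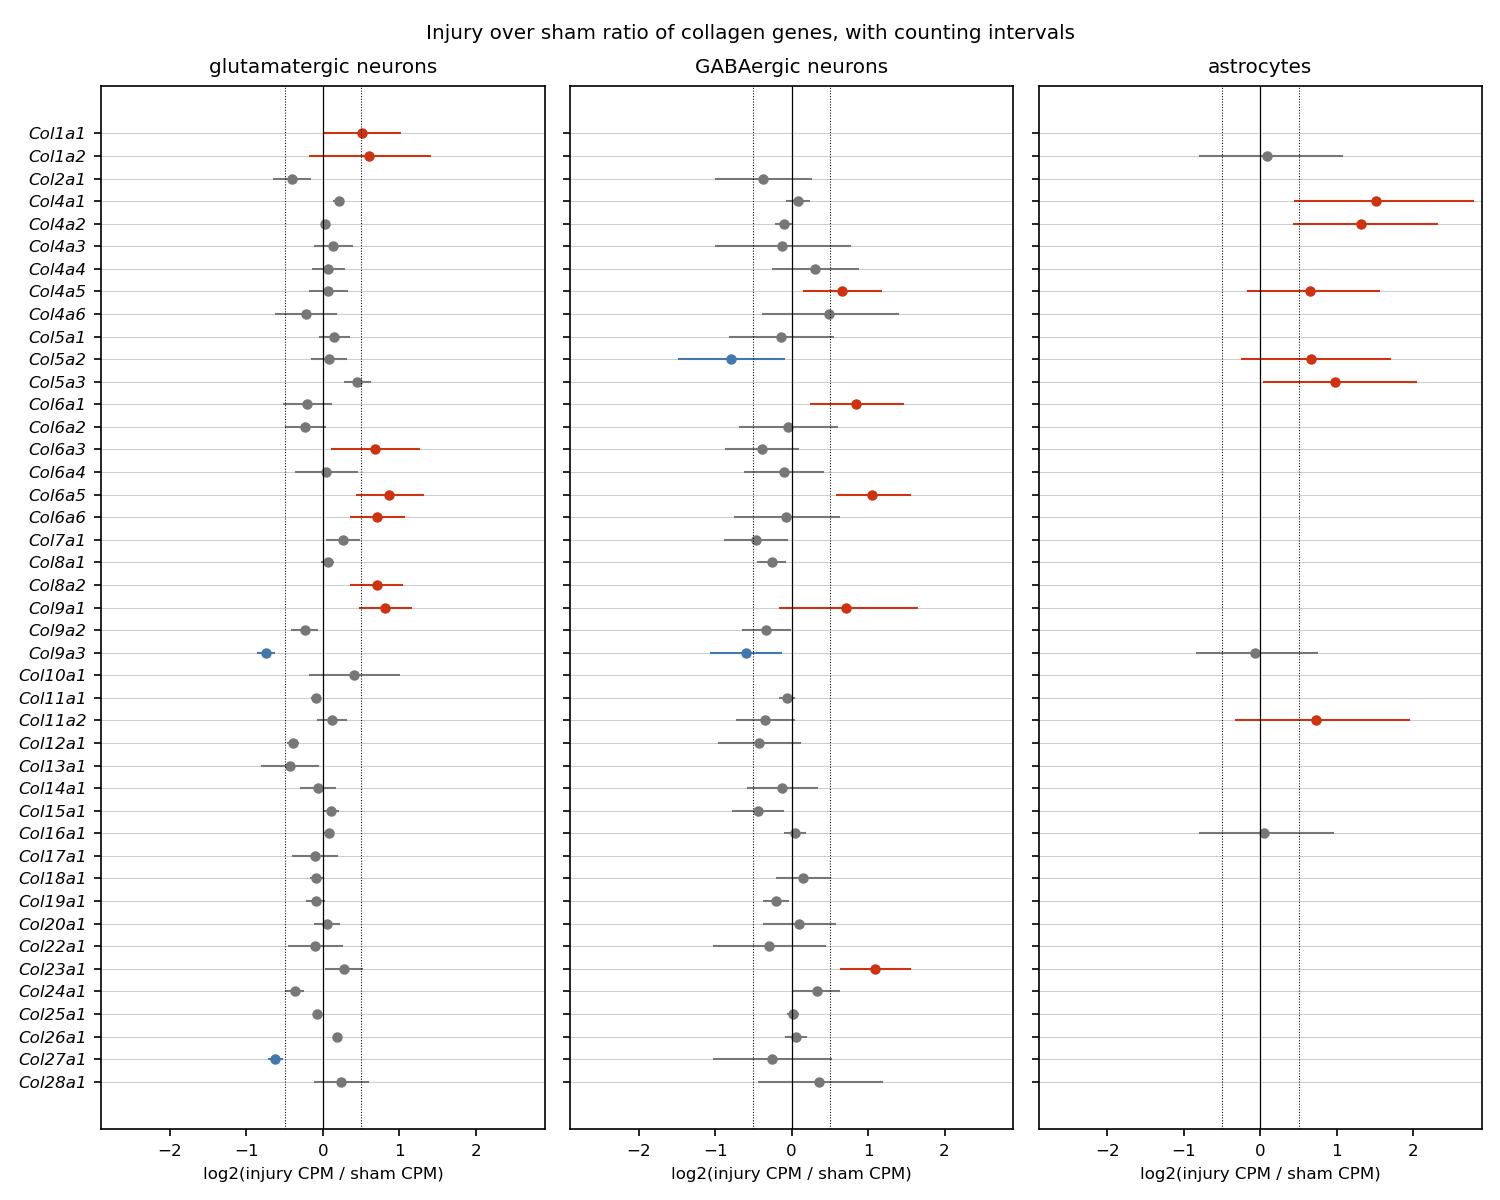
Log2 ratio of injury over sham for each collagen with at least 50 UMIs in glutamatergic neurons, GABAergic neurons and astrocytes, with 95% counting intervals and dotted lines at 0.5 to either side of 0. Col9a3 lies to the left in both neuron classes, and in astrocytes 6 of 9 genes lie beyond the right dotted line, led by Col4a1 and Col4a2.

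By cluster, 300 pairs of a collagen and a neuron cluster had 50 UMIs, of which 28 were higher and 31 lower by the fold, against 4.85% and 5.75% of pairs over all genes. Col4a1 was above 0 in 16 of 19 clusters and past the fold in 1, the habenula-like N6 (Chat/Chrna3), where Col4a1 went from 22 to 108 UMIs (7.39 and 21.5 CPM, 1.54, 0.87 to 2.27). Col26a1 was above 0 in 13 of 16 clusters and past the fold in 3. Col15a1 was past the fold upward in 3 of 13 clusters, most in N7 (1.13), while N4, the cluster it marks, was not among them.

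In astrocytes 6 of 9 collagens were higher by the fold and none lower, against 13.5% and 9.49% of all genes tested. The collagen median was 0.67 and that of all genes 0.00. The minimum of 50 UMIs counts both libraries together, and the class held 453787 UMIs in sham and 1429818 after injury. A gene with few sham UMIs thus reached the minimum only where its injury count was high. The 6 genes had 8 to 15 UMIs in sham, so their number and the median describe the genes kept and test nothing. The basement membrane pair led, with Col4a1 from 8 to 72 UMIs (1.51, 0.46 to 2.78) and Col4a2 from 12 to 94 UMIs (1.31, 0.44 to 2.32). Col5a3 (0.97, 0.04 to 2.04) was the third gene whose interval lay above 0, and Col11a2 (0.73), Col5a2 (0.67) and Col4a5 (0.65) had intervals that held 0. The class included 98 injury nuclei of cluster G9 (A2m/Gfap), which had no sham nuclei, and Gfap is a marker of reactive astrocytes. In G9 Col4a2 stood at 115 CPM and Col4a1 at 57.5 CPM. In G3 (Itih3/Etnppl), the cluster present in both libraries, Col4a2 went from 26.4 to 48.8 CPM and Col4a1 from 17.6 to 47.9 CPM. Without G9 the ratio was 1.44 for Col4a1 and 0.89 for Col4a2. In that setting 4 of 7 collagens were past the fold, counting both directions, and the share of all genes for it is not given. The median was 0.47, short of the fold, so not all 4 were higher.

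In oligodendrocyte precursors 1 of 5 collagens, Col5a3, was past the fold (15 and 38 UMIs, 0.62, -0.28 to 1.59), against 7.92% of all genes higher and 7.68% lower. In microglia the 1 collagen with enough UMIs, Col27a1, had a ratio of 0.20, against 25.8% of genes higher and 20.2% lower. No collagen reached 50 UMIs in vascular nuclei.

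Over all nuclei 8 of 43 collagens were higher by the fold and 2 lower, against 9.72% and 2.81% of all genes. Col6a3 led with 134 UMIs in sham and 911 after injury (log2 ratio 2.38, 2.12 to 2.66), followed by Col23a1 with 374 and 1868 UMIs (1.94, 1.78 to 2.10). Both rested on N20 (Ano2/Myo5b), a GABAergic cluster of 3 sham and 416 injury nuclei that was left out of the class comparison. N20 held 627 Col6a3 UMIs (68.8% of those in injury, 141 CPM, 130 to 152) and 1046 Col23a1 UMIs (56.0%, 234.5 CPM, 221 to 249). Both levels were far above any compared neuron cluster. In its 3 sham nuclei N20 had 0 Col6a3 and 1 Col23a1 UMIs. Called doublets made up 35.1% of N20, and Clic6, a listed marker of another class, was among its 10 leading genes. Their part in these levels was not tested. Without the 3 neuron clusters nearly absent from sham the ratios were 0.75 (0.45 to 1.06) for Col6a3 and 0.78 (0.60 to 0.96) for Col23a1. Those ratios still included the mixed clusters, where Col6a3 went from 8 to 92 UMIs and Col23a1 from 29 to 179.

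**Figure D5:**
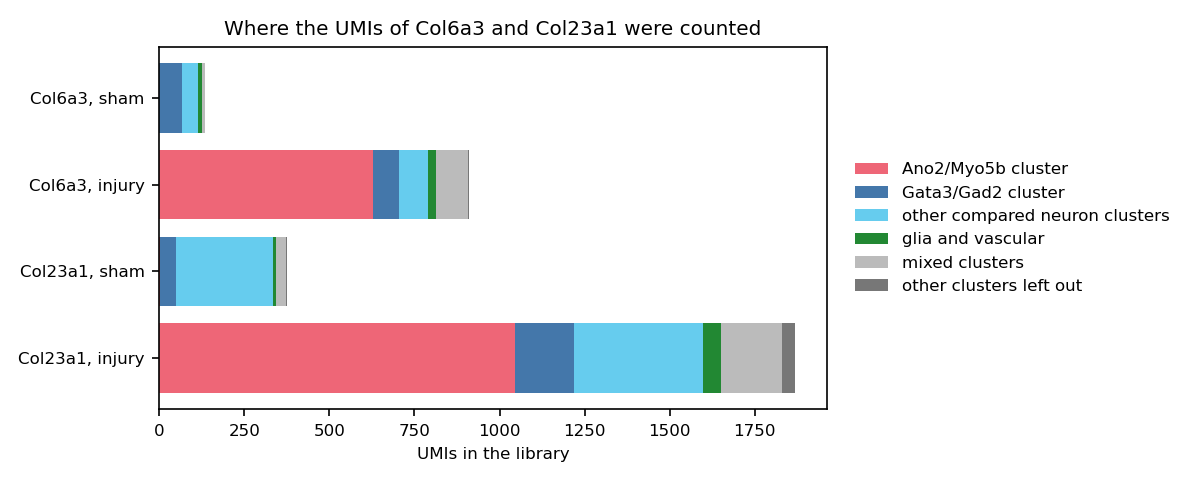
UMIs of Col6a3 and Col23a1 in each library, as bars starting at 0 and stacked by where the nuclei fall. In the injury bars the Ano2/Myo5b cluster holds 627 of 911 Col6a3 and 1046 of 1868 Col23a1 UMIs, and in the sham bars 0 and 1.

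Other genes of the collagen pathway were counted from lists. Of 30 measured genes that make and modify collagen in glutamatergic neurons, none was higher and 1 was lower by the fold, Loxl2, a cross-linking lysyl oxidase (-0.65, -1.11 to -0.19), with a list median of 0.00, where 5.01% of all genes were higher and 3.09% lower. Loxl3 (0.44), Tll2 (0.38) and Colgalt2, a hydroxylysine galactosyltransferase (0.35), lay within the fold. Of 16 collagen receptors and binding partners 2 were higher, Musk, a receptor kinase known from the neuromuscular junction (26 and 43 UMIs, 0.63, with an interval of -0.11 to 1.39 that holds 0), and Itga11, an integrin chain that binds fibrillar collagen (0.55, 0.42 to 0.69), while Mrc2, an endocytic collagen receptor (0.48), and Itga1 (0.33) were not past it. Itga11 was also higher in GABAergic neurons, from 80 to 287 UMIs (1.13, 0.77 to 1.51), a value singled out after it was seen. Of 14 genes of collagen breakdown 1 was higher, Mmp14, a membrane-bound collagenase (28 and 52 UMIs, 0.79, 0.10 to 1.51), against 0.29 for Mmp9, 0.28 for Mmp2 and -0.16 for the inhibitor Timp4. Without called doublets no breakdown gene was past the fold there. In astrocytes 2 of 11 biosynthesis genes were past the fold upward, against 13.5% of all genes, namely Adamts3, a procollagen protease (0.87, -0.23 to 2.16), and P4ha3, a proline hydroxylase (0.77, -0.34 to 2.07). Each had 8 UMIs in sham, and both intervals hold 0. Of the 3 that were past it downward, against 9.49% of all genes, Ppib, an isomerase that helps collagen fold (-0.98, -1.83 to -0.09), and Sec23a, a transport coat protein (-0.68, -1.36 to 0.03), had the largest ratios. None of 7 receptors (Ddr1 0.47, Adgrg1 0.36, Ptprs 0.34, Sdc3 -0.16) and none of 5 breakdown genes (Reck -0.43, Mmp14 0.22, Timp4 -0.11, Mmp16 0.05) passed the fold in astrocytes.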

How the data were processed

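Per the labels and the study's methods, the authors pooled sorted nuclei of 4 mice per group, made 10x 3′ libraries and counted UMIs with Cell Ranger 6.0.2 on GRCm38. What they deposited is raw: UMI counts for each gene in each barcode. Whether introns or strand were used was not stated. Nuclei with over 2% mitochondrial UMIs, under 200 or over 7500 genes were left out (68 barcodes), which left 16373 sham and 21777 injury nuclei with medians of 7190 and 6810 UMIs. Scrublet called 13.4% and 17.5% doublets at an assumed rate, and they were kept. Libraries were integrated in Seurat 5.3.0 (R 4.3.3) with collagens and the other listed pathway genes barred, leaving 1971 of 2000 genes. Clustering used 30 components and the Louvain method at 0.5. Clusters with over 50% called doublets were set apart as mixed.

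Clusters were named from marker lists. A leading gene of N1 and of G4 is not reported here. The naming score of 1.5, the neuronal marker drop of 1 and the moving rule of 2 (log2), the floor of 3 UMIs in marking folds and the naming of the 4 oligodendrocyte clusters as one were set after the data were seen, and rebuilt names may differ from the study's. The members and lists were chosen with earlier results of these data known.

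UMIs were summed per cluster or class and scaled to CPM. Intervals are exact Poisson for levels and Clopper-Pearson for ratios. The free RNA level came from neuronal genes in glia and vascular nuclei, and from oligodendrocyte and astrocyte markers in neurons. In vascular nuclei, with 0 UMIs of the neuronal genes, it is the ceiling that 3 allow. Values are named for all marking genes (the 14 with the largest fold in full), Col12a1, Col11a1, Col23a1 and Col6a3, up to 5 leading collagens per glial class, up to 5 past the fold in each direction per class and up to 4 genes per other list. Broad collagens, pairs by start site and single cluster ratios were added after their values were seen. So were Col16a1 and Col1a2 in astrocytes, Col9a2 in glutamatergic neurons and the oligodendrocyte shares of Col6a3. Ratio scripts were tested on simulated data. Alternatives were TMM (edgeR 4.0.16) and median-of-ratios scaling, UMI minimums of 20 and 200, free RNA subtraction, doublet removal, means of single nuclei, an equal cluster mix, no nucleus filter, no integration, a resolution of 1.0, a marking fold of 8 and, chosen after seeing the data, leaving out G9 or the 3 uneven neuron clusters.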

Additional observations from a re-analysis of the deposited data

Results flagged for a closer look

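For 4 collagens the ratio of injury over sham was past the fold of 0.5 upward in at least 1 neuron cluster and downward in at least 1 other, with counting intervals on either side of 0, and the difference between the clusters was not tested. Col23a1 had a log2 ratio of 1.20 in the GABAergic cluster N0 (Gata3/Gad2, 47 and 174 UMIs) and -1.14 in the glutamatergic cluster N5 (Mtnr1a/Fbln1, 58 and 25 UMIs). Col18a1, whose end fragment is endostatin, had 0.75 in N16 (Glra3/Ankfn1, 60 and 104 UMIs) and -2.09 in N25 (Oxt/Sim1, 33 and 17 UMIs). Col25a1 had 0.99 in N21 (Padi1/Serpinb7), its lowest cluster in sham, and -1.20 in N24 (Ebf2/Corin). Col6a1 had 0.89 in N0 and -0.59 in N1 (Lmx1a).

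In nuclei outside the comparisons, 3 collagens lay in the injury library at more than 2 times their highest level in a compared neuron cluster or in a class other than vascular nuclei. Cluster N20 (Ano2/Myo5b), present after injury only but for 3 nuclei, had 140.6 CPM of Col6a3 and 234.5 CPM of Col23a1. The unnamed cluster G4 (Frmpd2) had 126 UMIs of Col8a1, a network-forming collagen of vessels, in its 346 injury nuclei, or 259 CPM, and 0 in its 85 sham nuclei. With 1 pool per group these levels have no replicate check.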

How the results depend on the processing

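With 1 pool per group no result has a replicate check, counting error is its only measured error, and depth limits glia most. No paired analysis was possible because sham and injury had 1 library each. Shares over all genes are given for the main settings only, and a minimum of 200 UMIs leaves fewer genes to count. The number of collagens past the fold changed by over 1.5 times in small classes or at few UMIs. In GABAergic neurons it was 7, and 2 with a minimum of 200 UMIs, 12 with free RNA subtracted and 11 without called doublets. In oligodendrocytes it was 1, and 2 with a minimum of 20 UMIs, 0 with 200, 2 by mean CPM of single nuclei and 2 at an equal cluster mix. In precursors it was 1, and 2 with a minimum of 20 UMIs. In microglia it was 0, and 1 with TMM and 1 with median-of-ratios factors, which shifted that class by -0.37 and -0.36 (log2). In vascular nuclei the shifts were -0.56 and -0.60, and elsewhere both were within 0.08. A marking fold of 8 left 9 of the 17 marking genes. Without called doublets 14 genes marked a cluster, 13 of them among the 17, with Col27a1, Col6a1, Col6a2 and Col4a3 lost. Without integration Col6a1, Col11a2 and Col4a3 were lost, and at a resolution of 1.0 Col6a2. The other 104 recomputed summary values stayed within 1.5 times or their error, and none reversed. Of the recomputed values outside this summary, 74 moved and 383 stayed the same. Among single values, Col27a1 in glutamatergic neurons went from -0.62 to -0.14 at an equal cluster mix, and Col6a3 from 0.68 to 0.48 without called doublets, while with free RNA subtracted Col6a3 was left with no injury level there and gave no ratio.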
